A study of Mus musculus with 3 samples.

Results

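The nuclear genes of the mitochondrial respiratory chain were taken as every feature whose symbol begins with Nduf, Uqcr, Cox4, Cox5, Cox6, Cox7, Cox8 or Atp5, together with Sdha, Sdhb, Sdhc, Sdhd and Cyc1. Ndufa4l2, the Ndufaf assembly factors, symbols ending in Rik and pseudogenes marked -ps were left out. The rule gave 84 of the 53380 features. By the complex they belong to, 36 were genes of complex I, 4 of complex II, 9 of complex III, 19 of complex IV and 16 of complex V. No measured value entered the rule. Ndufa4, which carries a complex I name, was counted with complex IV, where its protein is now placed.

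The respiratory chain sits in the inner mitochondrial membrane. Complexes I and II pass electrons from NADH and succinate to ubiquinone, complex III passes them to cytochrome c and complex IV to oxygen, while complexes I, III and IV pump protons that complex V, the ATP synthase, uses to make ATP. Most subunits are encoded in the nucleus and a core set in the mitochondrial genome, and several complex IV subunits have a ubiquitous and a tissue-restricted isoform. In peripheral nerve the mesenchymal cells build the endoneurium around axons, the perineurial sheath around each fascicle and the outer epineurium, and after a cut they populate the bridge of tissue between the stumps.

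The cells came from mouse sciatic nerve and carried the R26-TomatoLSL reporter, switched on by Pdgfrb-cre/ERT2, a tamoxifen-inducible Cre, so a cell was labelled only if Pdgfrb drove Cre in it or in a cell it came from. TdTomato-positive cells were sorted from pooled nerves and profiled by droplet single-cell RNA sequencing. The 3 libraries, 1 per group, were uninjured nerve (intact), the bridge region 7 days after injury and the bridge region 21 days after injury, and all 3 groups carried the same reporter and Cre. Only the uninjured nerves went through a bead step that takes out myelin, and an effect of that step cannot be told apart from one of the group. The labels used here give neither the age nor the sex of the mice. With 1 library in a group no difference below has a replicate check. No test was made, and every interval is a 95% interval for counting error alone.

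The authors' annotation covered 1343 intact, 1780 day 7 and 4111 day 21 cells, with medians of 5667, 19316 and 7442 UMIs (unique molecular identifiers, 1 per captured transcript) in those 3 libraries. The day 7 library was thus the deepest per cell. Mitochondrially encoded genes, ribosomal RNA included, took a median of 1.41% of a cell's UMIs in intact nerve, 0.898% at day 7 and 2.06% at day 21. Any pair of libraries shared at most 2 annotated cell barcodes. A level below is the count of UMIs summed over the cells named, scaled to 1000000 UMIs of those cells (CPM). A difference is a log2 ratio of CPM with 0.5 counts added to each sum, and a gene is called higher or lower when it passes 1.5-fold. Ratios over many genes were taken for the 8157 features that averaged at least 10 CPM over the 3 libraries. Of the 84 members, 77 did so, and Cox4i2, Cox6a2, Cox7a1, Cox7b2, Cox8b, Cox8c and Atp5s did not.

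The authors' class names were set against markers of the nerve layers. In intact nerve the summed endoneurial markers stood at 2961 CPM in MES_ENDO and at most 791 CPM in the other classes compared, the epineurial markers at 5505 CPM in MES_EPI and the perineurial markers at 5721 CPM in MES_PERI. MES_PERI held 3232 CPM of perineurial markers at day 21 but 929 CPM at day 7, beside 874 CPM of endoneurial markers. The other classes compared held at most 297 CPM of perineurial markers at day 7. Since its own perineurial and endoneurial sums were close at day 7, MES_PERI is called by its label there. MES_DIV held 2622 and 3052 CPM of cell cycle markers at day 7 and day 21. The meaning of MES_DIFF is not given in the sources used here. A class was compared where it had at least 100 cells, which leaves out MES_EPI-diff everywhere and MES_DIFF and MES_DIV in intact nerve.

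Summed over all 84 genes, nuclear respiratory chain transcripts made up 19256 CPM in intact nerve (95% interval 19162 to 19351). At day 7 they made up 23597 CPM (23547 to 23647), and in the day 21 library 19611 CPM (19564 to 19658). Over all annotated cells the day 7 library stood highest, and the day 21 library was close to the intact one. Complex V had 4875, 6357 and 5248 CPM in intact, day 7 and day 21 cells. Complex IV had 5807, 7212 and 5780 CPM in the same order. Complex I had 6336, 7276 and 6219 CPM, complex III had 1963, 2448 and 2055 CPM, and complex II had 275, 305 and 309 CPM. Over all annotated cells every complex was thus higher at day 7 than in intact nerve, and complex II was the one in which day 21 was not below day 7. The class makeup differed, since MES_PERI was 116 of 1343 intact and 2069 of 4111 day 21 cells. Within MES_PERI the 84 genes summed to 29070 CPM in intact nerve and 21920 CPM at day 21. The sums were 17188 and 15802 CPM in MES_EPI and 19477 and 20635 CPM in MES_ENDO in that order.

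Between day 7 and intact cells, 67 of the 77 members were above 0 and their median log2 ratio was 0.25. Of these members 5 were called higher and 0 lower, against 15.3% of all features called higher and 16.9% called lower. The median over all features was 0.02. Abundant genes as a whole stood higher at day 7, since the 1433 features of at least 100 CPM had a median of 0.22, beside 0.28 for the 61 members of that abundance. The share of members called higher was below the share among all features, so the day 7 library shows many small differences of 1 sign among the members rather than large ones. By complex the medians were 0.22 for I, 0.19 for II, 0.25 for III, 0.37 for IV and 0.39 for V, and all 15 tested genes of complex V were above 0.

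**Figure D1:**
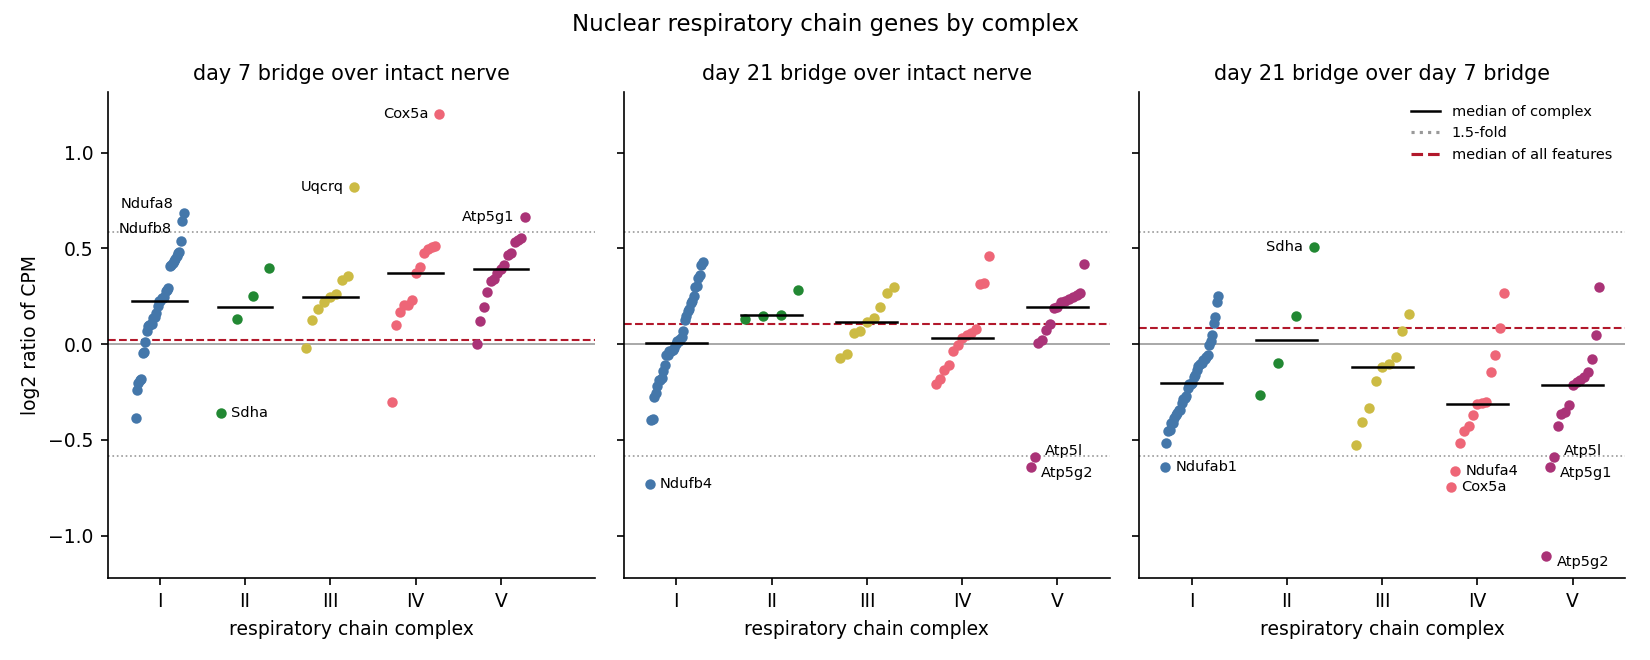
Each point is 1 of the 77 members that passed the abundance filter, placed by complex (x axis) and by the log2 ratio of CPM between the 2 libraries named above the panel (y axis); black bars are medians of a complex, dotted lines mark 1.5-fold and the dashed line is the median of all 8157 features. At day 7 over intact, Cox5a stands at 1.2 and Sdha at -0.36, and at day 21 over day 7, Atp5g2 stands at -1.11.

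Cox5a, a nuclear-encoded subunit of complex IV on chr9:57521274-57532426, showed the largest difference of any member that passed the filter. It was at 121.6 CPM in intact cells, 279.8 CPM at day 7 and 167 CPM at day 21. Day 7 was high and the counting intervals of the libraries did not overlap, with a log2 ratio of 1.2 for day 7 over intact (1.11 to 1.30), that is 2.30-fold, and 0.46 (0.36 to 0.56) for day 21 over intact. Uqcrq, a small subunit of complex III on chr11:53427922-53430831, was at 212, 375 and 260.4 CPM in intact, day 7 and day 21 cells. It was again highest at day 7, by 0.82 over intact (0.75 to 0.89). The other members called higher at day 7 were Ndufa8 (119, 192 and 147 CPM in intact, day 7 and day 21 cells) and Ndufb8 (161, 252 and 198 CPM), accessory subunits of complex I, and Atp5g1 (246, 389 and 249 CPM), 1 of 3 genes for the c subunit of the ATP synthase ring. Each of these had its highest level at day 7. With MES_ENDO, MES_EPI and MES_PERI given equal weight, Uqcrq (0.579), Atp5g1 (0.46) and Ndufb8 (0.41) fell short of 1.5-fold. Cox5a (0.76) and Ndufa8 (0.62) still passed. In cells of 5000 to 15000 UMIs Atp5g1 (0.45) and Ndufb8 (0.56) fell short, while Cox5a (1.06), Uqcrq (0.71) and Ndufa8 (0.62) passed. Ndufb8 (0.56) also fell short after thinning to 2000 UMIs.

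A few members ran the other way. Sdha, the flavoprotein subunit of complex II on chr13:74322254-74350280, was at 74.5 CPM in intact cells, 58.1 CPM at day 7 and 82.7 CPM at day 21. The day 7 library was the low one, with log2 ratios of -0.36 for day 7 over intact (-0.49 to -0.23) and 0.51 for day 21 over day 7 (0.43 to 0.59), neither past 1.5-fold. Sdhb, the iron-sulfur subunit that works beside it, was at 97.4, 128 and 107 CPM in intact, day 7 and day 21 cells. The membrane anchors of complex II were at 47.4, 52.1 and 57.7 CPM for Sdhc and at 55.8, 66.6 and 62.1 CPM for Sdhd in the same order. Sdha was the 1 gene of complex II that was lower at day 7 than in intact cells. Cox7a2l, a factor that joins complexes III and IV into supercomplexes, was at 171 CPM in intact cells, 139 CPM at day 7 and 167 CPM at day 21, and so was also lowest at day 7. Ndufb4, an accessory subunit of the complex I membrane arm, was at 199 CPM in intact cells, 153 CPM at day 7 and 120.1 CPM at day 21, and was the member with the lowest ratio in day 7 over intact, -0.39.

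Between day 21 and intact cells the members were spread around 0, with 49 of 77 above it and a median of 0.07, beside 0.10 over all features. None was called higher, against 10.8% of all features, and 3 were called lower, against 7.81%. The 3 were Ndufb4 with a log2 ratio of -0.73 (-0.81 to -0.65), Atp5g2 with -0.64 (-0.75 to -0.53) and Atp5l with -0.59 (-0.65 to -0.53). Atp5g2, another gene for the c subunit, was at 115 CPM in intact cells, 159 CPM at day 7 and 74.0 CPM at day 21. Atp5l, which encodes subunit g of the membrane part, was at 401 CPM in both intact and day 7 cells and at 266 CPM at day 21. The day 21 library was the low one for both. With each cell thinned to 2000 UMIs none of the 3 passed 1.5-fold, at -0.57 for Ndufb4, -0.52 for Atp5g2 and -0.58 for Atp5l. The median of the members turned to -0.13 when MES_ENDO, MES_EPI and MES_PERI were given equal weight.

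Between day 21 and day 7 cells, 14 of the 77 members were above 0 and the median was -0.21, beside 0.09 over all features and -0.10 over features of at least 100 CPM. None was called higher, against 14.7% of all features, and 6 were called lower, against 8.57%. They were Atp5g2 (-1.11, -1.17 to -1.04), Cox5a (-0.74), Ndufa4 (-0.66), Ndufab1 (-0.64), Atp5g1 (-0.64) and Atp5l (-0.59). The 3 comparisons share libraries, so a low day 21 over day 7 ratio and a high day 7 over intact ratio of a gene rest on the same day 7 counts.

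Within complex I the remaining genes at the ends of the order were as follows. Ndufab1, the mitochondrial acyl carrier protein, was at 138, 164 and 105 CPM in intact, day 7 and day 21 cells. Ndufs5, an accessory subunit, was at 227, 269 and 188 CPM, and Ndufa6 at 219.6, 186 and 193 CPM. Of the catalytic core subunits, Ndufv1, which binds NADH, was at 77.05, 86.2 and 103 CPM, Ndufs8 at 76.7, 104 and 103 CPM and Ndufs1 at 25.7, 22.7 and 26.4 CPM in that order. The accessory genes Ndufab1 and Ndufs5 were thus lowest at day 21, while Ndufv1 was highest there over all annotated cells. Within classes Ndufv1 was at 68.6, 89.9 and 87.1 CPM in MES_ENDO and at 74.7, 67.7 and 71.6 CPM in MES_EPI in that order. It was at 128, 104 and 125 CPM in MES_PERI, so day 21 was highest in none of these classes. In MES_DIFF and MES_DIV it was at 108 and 157 CPM at day 21, against 90.5 and 118 CPM at day 7.

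In complex III, the core proteins Uqcrc1 and Uqcrc2 were at 84.3, 92.0 and 96.7 CPM and at 76.6, 75.5 and 84.3 CPM in intact, day 7 and day 21 cells. Cyc1, the cytochrome c1 subunit that hands electrons to cytochrome c, was at 68.7, 86.6 and 82.8 CPM. Uqcrb was at 312, 400.1 and 301 CPM and the hinge protein Uqcrh at 507, 608 and 483 CPM. Over all annotated cells the small subunits Uqcrb, Uqcrh and Uqcrq were highest at day 7, and Uqcrc1 and Uqcrc2 were highest at day 21. Within the layer classes Uqcrc1 was at 74.4, 107 and 85.7 CPM in MES_ENDO, in the order intact, day 7 and day 21. It was at 77.3, 71.2 and 74.7 CPM in MES_EPI and at 157, 119 and 116 CPM in MES_PERI. Uqcrc2 was highest at day 21 in MES_ENDO, at 85.3 CPM, but below intact nerve in MES_EPI (61.5, against 66.9 CPM) and MES_PERI (99.0, against 112 CPM).

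In complex IV, Cox4i1, the ubiquitous isoform of subunit 4, was at 721 CPM in intact cells, 847 CPM at day 7 and 899 CPM at day 21. Cox7c was at 758, 1082 and 755 CPM in the same order. Ndufa4 was at 382, 532 and 337 CPM. Over all annotated cells Cox4i1 was the subunit among these 3 whose level was highest at day 21, while Cox7c and Ndufa4 were highest at day 7. Within MES_ENDO, MES_EPI and MES_PERI, Cox4i1 was lower at day 21, at 774, 651 and 1159 CPM, against 1035, 697 and 1331 CPM at day 7. In MES_DIFF and MES_DIV it was higher at day 21, at 795 and 956 CPM, against 767 and 911 CPM at day 7. Cox8a was at 797, 854 and 689 CPM, Cox6a1 at 211, 243 and 219 CPM and Cox7a2 at 356, 411 and 331 CPM, each with its highest level at day 7. Within MES_PERI each of them was instead highest in intact nerve, at 1427, 383 and 527 CPM. In MES_EPI Cox7a2 was also highest in intact nerve, at 310 CPM, against 288 CPM at day 7 and 244 CPM at day 21.

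In complex V, the catalytic subunits Atp5a1 and Atp5b were at 215, 247 and 255 CPM and at 288, 313 and 385 CPM in intact, day 7 and day 21 cells. Both were highest at day 21. Atp5g3, the remaining c subunit gene, was at 208, 306 and 245 CPM, and Atp5o, part of the peripheral stalk, at 183, 255 and 219.9 CPM, both highest at day 7. These orders are over all annotated cells. Within MES_PERI, Atp5a1, Atp5b and Atp5o were instead highest in intact nerve, at 318, 596 and 352 CPM. Atp5g2 made up 31.9% of the UMIs of Atp5g1 and Atp5g2 together in intact cells (95% interval 30.3 to 33.6). The share was 29.1% in day 7 cells (28.4 to 29.7) and 22.9% in day 21 cells (22.1 to 23.7). This share of transcripts, which leaves out Atp5g3, was thus lowest at day 21 over all annotated cells, and the counting intervals did not overlap. Day 21 was also lowest without overlap in MES_ENDO (19.4%) and MES_EPI (22.2%). In MES_PERI the intervals of intact (25.9%, 21.2 to 31.01) and day 21 cells (23.7%, 22.4 to 25.01) overlapped, and day 7 cells were highest (33.5%, 31.5 to 35.6). The intervals of day 7 and day 21 cells overlapped in MES_DIFF (25.2%, 24.03 to 26.5, and 22.3%, 20.1 to 24.6). They also did in MES_DIV (34.9%, 33.3 to 36.5, and 30.6%, 27.3 to 34.1).

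The promoters of 67 of the 84 members were found in the RefSeq table for GRCm38.p6, each running 250 bases before to 50 bases after the start. They were searched on both strands for 3 motifs known from respiratory genes, the NRF1-type (GCGCA, any base, GCGC), the ETS-type CCGGAAG and the YY1-type AANATGGCG. The NRF1-type motif was found in 25.4% of the members' promoters, against 5.19% of all promoters of that length and 13.8% of those whose genes averaged at least 100 CPM here. The ETS-type motif was in 23.9% of members, against 9.93% of all promoters and 19.8% of those of abundant genes. The YY1-type motif was in 14.9% of members, against 2.76% and 5.95% in the same order. A match is a run of letters and not a bound site. The promoters of Ndufb4, Atp5g2 and Cox5a are given because these genes showed the lowest day 21 over intact, the lowest day 21 over day 7 and the highest day 7 over intact ratios, and that of Cox7a1 because its level differed widely between classes; capitals mark the NRF1-type motif.
Ndufb4, chr16:37654319-37654618, minus strand: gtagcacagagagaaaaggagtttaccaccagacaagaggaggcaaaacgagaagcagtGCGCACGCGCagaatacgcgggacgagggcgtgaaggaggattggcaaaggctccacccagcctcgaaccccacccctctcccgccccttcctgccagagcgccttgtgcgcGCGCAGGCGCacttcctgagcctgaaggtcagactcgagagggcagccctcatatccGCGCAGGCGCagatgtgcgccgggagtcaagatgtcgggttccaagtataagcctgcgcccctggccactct
Atp5g2, chr15:102670998-102671297, minus strand: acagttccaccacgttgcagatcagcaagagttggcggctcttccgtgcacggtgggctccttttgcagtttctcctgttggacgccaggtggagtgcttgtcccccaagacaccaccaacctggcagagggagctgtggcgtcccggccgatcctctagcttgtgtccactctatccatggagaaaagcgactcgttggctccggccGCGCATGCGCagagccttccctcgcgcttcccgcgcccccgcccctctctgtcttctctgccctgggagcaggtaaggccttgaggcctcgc
Cox5a, chr9:57520982-57521281, plus strand: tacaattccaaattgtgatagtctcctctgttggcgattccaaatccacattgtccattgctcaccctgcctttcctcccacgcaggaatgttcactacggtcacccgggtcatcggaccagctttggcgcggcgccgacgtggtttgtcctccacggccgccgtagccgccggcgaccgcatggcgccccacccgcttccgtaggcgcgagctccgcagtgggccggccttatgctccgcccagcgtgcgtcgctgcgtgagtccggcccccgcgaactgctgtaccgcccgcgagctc
Cox7a1, chr7:30183921-30184220, plus strand: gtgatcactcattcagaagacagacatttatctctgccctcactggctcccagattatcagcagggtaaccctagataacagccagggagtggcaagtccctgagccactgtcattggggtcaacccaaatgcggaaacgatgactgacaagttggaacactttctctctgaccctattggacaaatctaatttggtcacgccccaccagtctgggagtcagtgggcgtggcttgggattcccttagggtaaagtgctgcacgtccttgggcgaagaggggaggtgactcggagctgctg
The Ndufb4 window held 3 such sites, starting 191, 79 and 22 bases before the start. The Atp5g2 window held 1, starting 42 bases before it, which reads the same on both strands. None of the 3 motifs was found in the windows of Cox5a and Cox7a1.

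The difference between day 7 and intact nerve was not alike in the classes. In MES_ENDO the summed members were at 27395 CPM at day 7, against 19477 CPM in intact nerve. The median log2 ratio was 0.49 (all features 0.05), with 23 of 77 members called higher and 0 lower, against 19.2% and 17% of all features. In MES_EPI the sums were 19272 CPM at day 7, against 17188 CPM in intact nerve, the median was 0.12 (all features -0.02) and 2 members were called higher and 0 lower, against 13.5% and 15.6%. In MES_EPI cells of 5000 to 15000 UMIs that median was 0.026 with 1 member past the fold, and after thinning to 2000 UMIs 5 members passed. In MES_PERI the sums were 27898 CPM at day 7, against 29070 CPM in intact nerve, the median was -0.11 (all features -0.05) and 2 members were called higher and 8 lower, against 21.6% and 25.6%. Whether the classes differ in this could not be tested with 1 library each. In MES_ENDO the median of the features of at least 100 CPM was 0.25, beside 0.50 for members of that abundance.

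Per cell the same order was seen. The 84 genes took a median of 1.92% of a MES_ENDO cell's UMIs in intact nerve (quartiles 1.59 and 2.30), 2.73% at day 7 (2.28 and 3.13) and 1.99% at day 21 (1.67 and 2.35). In MES_EPI cells the medians were 1.70%, 1.85% and 1.53% in intact, day 7 and day 21 cells. In MES_PERI cells they were 2.82%, 2.73% and 2.13%. In MES_DIFF cells the median was 2.41% at day 7 and 1.83% at day 21, and in MES_DIV cells 2.84% and 2.53%.

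**Figure D2:**
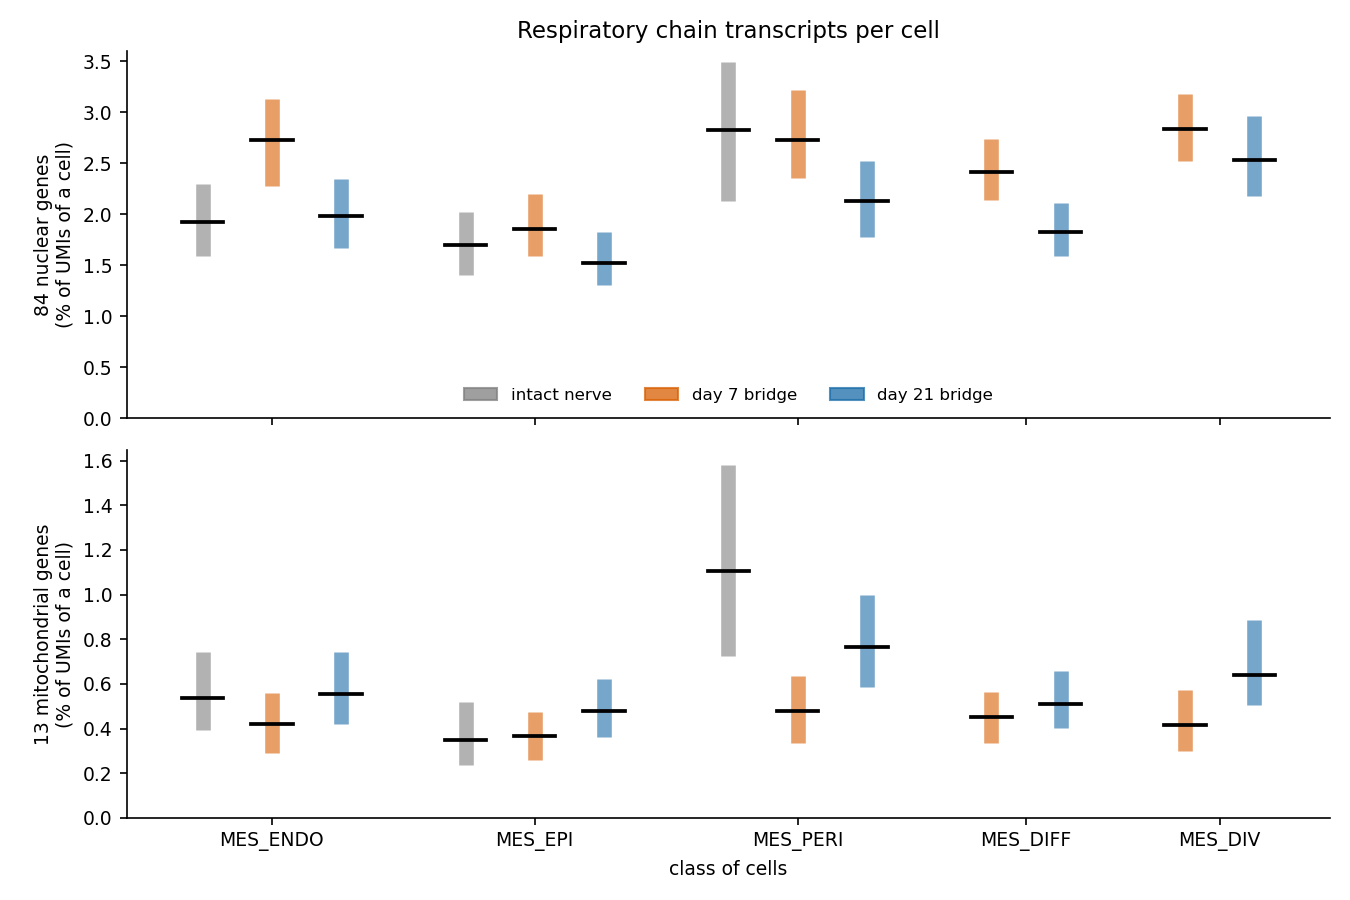
The percentage of a cell's UMIs that fell on the 84 nuclear genes (upper panel) and on the 13 mitochondrially encoded subunits (lower panel) is shown by class (x axis) and library (colour); black lines are medians over cells and coloured bars run between the quartiles. In MES_ENDO the nuclear share was highest at day 7, with a median of 2.73%, and in MES_PERI the mitochondrially encoded share was highest in intact nerve, with a median of 1.10%.

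Cox5a and Uqcrq were called higher at day 7 than in intact nerve in both MES_ENDO and MES_EPI. Cox5a was at 99.7 CPM in intact, 313 CPM in day 7 and 189 CPM in day 21 MES_ENDO cells. It was at 109, 190.3 and 124 CPM in MES_EPI cells in the same order. In MES_PERI cells it was at 276, 317 and 177 CPM, so intact MES_PERI cells stood between the day 7 levels of MES_EPI and MES_ENDO. The log2 ratio of day 7 over intact was 1.65 in MES_ENDO (1.48 to 1.83) and 0.81 in MES_EPI (0.66 to 0.96). Uqcrq was at 195, 449.9 and 279 CPM in intact, day 7 and day 21 MES_ENDO cells and at 182, 284 and 209 CPM in MES_EPI cells. Its ratio of day 7 over intact was 1.21 in MES_ENDO (1.08 to 1.34) and 0.64 in MES_EPI (0.53 to 0.76). In MES_PERI cells it was at 396, 420.1 and 283 CPM, with intact and day 7 cells close to each other. No member was called higher in all 3 classes, against 4.89% of all features, and 25 of 77 were above 0 in all 3, against 25.7%. The largest ratio in MES_ENDO was that of Cox6b2, described with the isoforms. Sdha was below 0 in all 3 classes, with -0.45 in MES_ENDO (-0.73 to -0.18), -0.47 in MES_EPI (-0.68 to -0.26) and -0.96 in MES_PERI (-1.32 to -0.58), as were Ndufb4, Ndufa5 and Ndufs1.

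**Figure D3:**
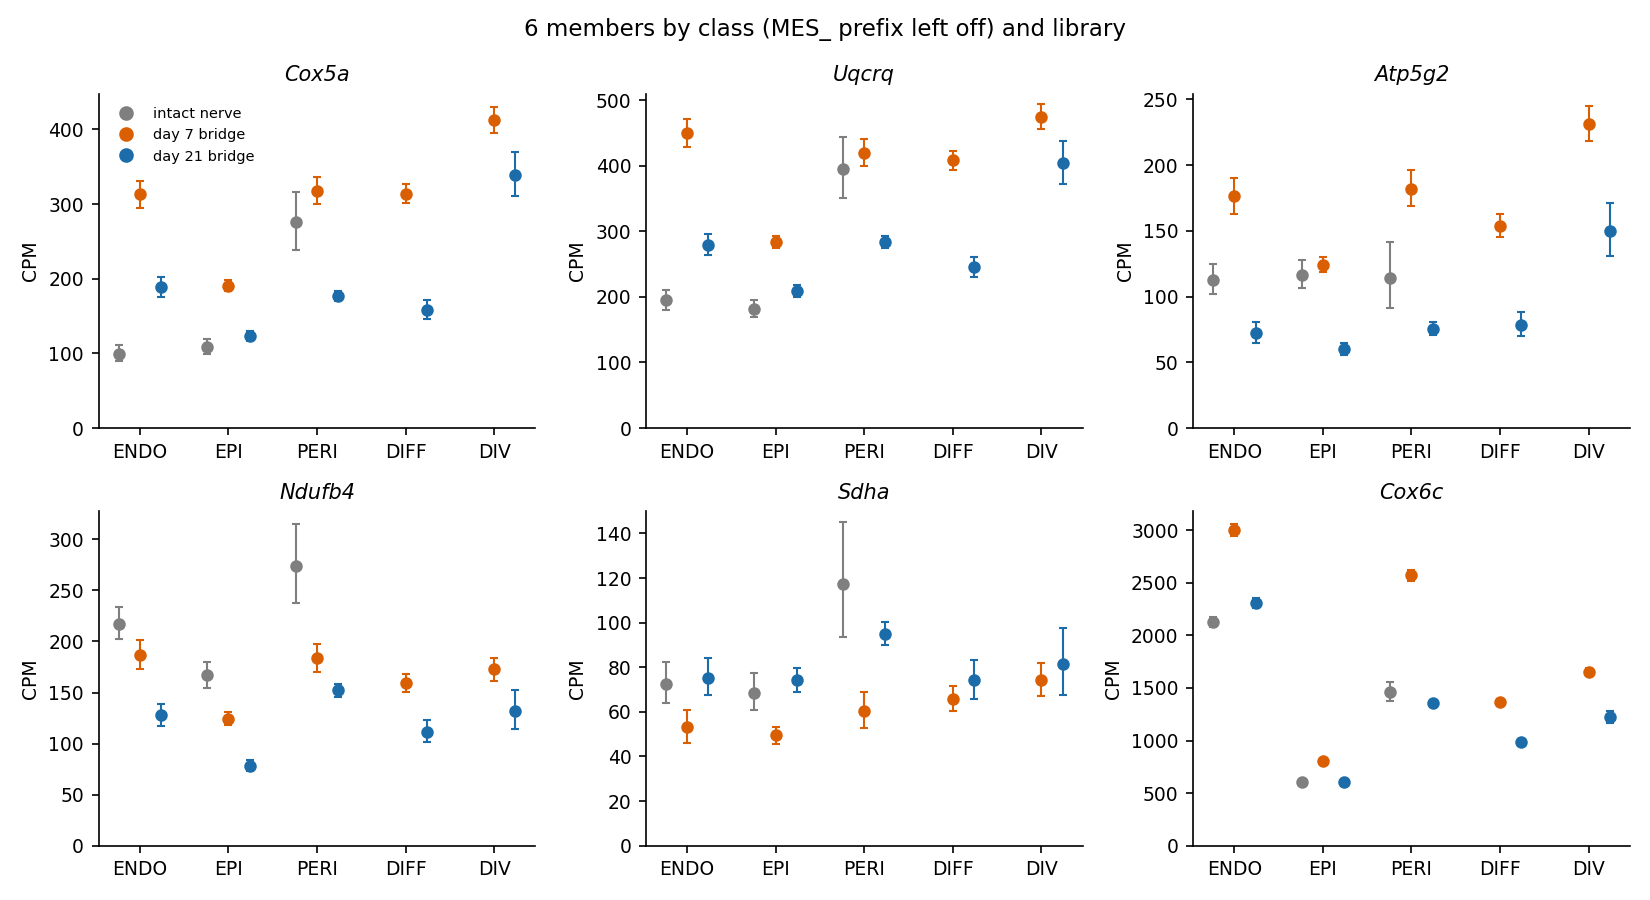
The CPM of 6 members (y axes, each from 0) is shown by class (x axis) and library (colour), with bars for the 95% Poisson interval of the summed count. Cox5a and Uqcrq stand highest at day 7 in MES_ENDO and MES_EPI, Atp5g2 stands lower at day 21 than at day 7 in all 5 classes, and Cox6c is highest in MES_ENDO and lowest in MES_EPI in each library.

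The median of the members at day 21 over day 7 was below 0 in each of the 5 classes compared. The medians were -0.37 in MES_ENDO, -0.24 in MES_EPI, -0.26 in MES_PERI, -0.35 in MES_DIFF and -0.09 in MES_DIV, while those of all features lay between 0.03 in MES_ENDO and 0.11 in MES_DIV. In MES_ENDO 0 members were called higher and 12 lower, against 12% and 9.59% of all features. In MES_EPI the counts were 0 and 6, against 11.2% and 6.46%. In MES_PERI they were 1 and 6, against 16.2% and 12.3%. MES_DIFF had 0 and 13, against 19.5% and 10.5%, and MES_DIV 0 and 1, against 15.9% and 8.64%. In each class the share of members called higher lay below that of all features. In MES_PERI and MES_DIV the share called lower did so too. In all 5 classes 48 of the 77 members were below 0, against 15.7% of all features.

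Atp5g2 was the 1 member called lower at day 21 than at day 7 in all 5 classes. It was at 72.2 CPM at day 21, against 176 CPM at day 7, in MES_ENDO. The levels were 60.1 CPM at day 21, against 124 CPM at day 7, in MES_EPI and 75.7 CPM at day 21, against 182 CPM at day 7, in MES_PERI. They were 78.7 CPM at day 21, against 154 CPM at day 7, in MES_DIFF, and 149.8 CPM at day 21, against 231 CPM at day 7, in MES_DIV. The ratios ran between -1.29 in MES_ENDO and -0.62 in MES_DIV, so the dividing class kept the highest day 21 level. Of all features, 1.03% were called lower in all 5 classes. Atp5b, Sdha and Cox7a2l were above 0 in all 5, and Sdha was called higher in MES_PERI, at 95.1 CPM at day 21, against 60.5 CPM at day 7.

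Against intact nerve, the day 21 members were lower in MES_PERI and near 0 in the other classes. The summed level in MES_PERI was 21920 CPM at day 21, against 29070 CPM in intact nerve. The median was -0.39 there (all features -0.01), with 0 members called higher and 20 lower, against 16.7% and 15.4% of all features. The median was 0.13 in MES_ENDO with 1 member higher and 2 lower, against 12.1% and 9.39%, and -0.08 in MES_EPI with 0 higher and 4 lower, against 10.1% and 7.98%. Ndufb4 and Atp5g2 were called lower in all 3 classes, which is 2 of 77 members, near the 2.29% of all features that were. In MES_EPI they had the lowest ratios, -1.10 (-1.25 to -0.95) for Ndufb4 at 77.9 CPM at day 21, against 167 CPM in intact nerve, and -0.96 (-1.13 to -0.78) for Atp5g2. In MES_PERI the lowest were Atp5l at 282 CPM at day 21, against 580.5 CPM in intact nerve, Cox8a at 762 CPM, against 1427 CPM, and Ndufb4 at 152 CPM, against 274 CPM. Intact MES_PERI rested on 116 cells and held 1954 CPM of vascular smooth muscle markers, against at most 238 CPM in the MES_PERI cells of the bridge. Tagln and Acta2 gave 1405 and 543 CPM of that sum, Myh11 gave 5.52 CPM, and Cnn1 and Des were at 0. Of 6 skeletal muscle markers Ckm, Acta1, Myh4 and Mb were at 0 there, Mylpf was at 2.76 CPM and Tnnt3 at 156 CPM. Without the MES_PERI cells that had at least 10 smooth muscle marker UMIs, a check chosen after seeing these values, 89 intact cells were left, their smooth muscle markers stood at 205 CPM and the median at day 21 over intact was -0.40 with 15 members lower.

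Within each library, MES_PERI cells held more and MES_EPI cells less of the respiratory chain than the other cells. These statements are not independent, since the other cells of each class include the other class. At day 7 MES_PERI held 27898 CPM, close to 27395 CPM in MES_ENDO and 28045 CPM in MES_DIV. MES_DIFF held 24501 CPM and MES_EPI 19272 CPM at that time. MES_PERI over the other cells had a median of 0.63 in intact nerve (all features 0.16), where 45 of 77 members were called higher and 0 lower, against 24.9% and 19.1% of all features. The medians were 0.22 at day 7, with 4 higher and 0 lower, against 10.5% and 11.2%, and 0.30 at day 21, with 3 higher and 0 lower, against 11.7% and 13.2%. In intact nerve the count without the smooth muscle marker cells was 44, and the summed level was then 28546 CPM in MES_PERI, against 18325 CPM in the other cells. Of the 77 members, 67 were above 0 in all 3 libraries, against 36.6% of all features. Cox4i1 and Cox6b2 were called higher in each, 2 of 77 members, against 5.32% of all features, with Cox4i1 at 1303, 1331 and 1159 CPM in intact, day 7 and day 21 MES_PERI cells, the highest levels of any class compared in those libraries.

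MES_EPI over the other cells had medians of -0.22 in intact nerve, -0.42 at day 7 and -0.41 at day 21, beside -0.07, -0.13 and -0.19 over all features. In intact nerve 0 members were called higher and 3 lower, against 11.2% and 14.4% of all features. The counts were 0 and 14 at day 7, against 9.54% and 14%, and 0 and 13 at day 21, against 10.7% and 19%. In all 3 libraries 69 of the 77 members were below 0, against 39.9% of all features, and Ndufv3 alone was above 0 in all 3. Cox6c and Ndufs8 were called lower in each library, 2 of 77 members, against 6.23% of all features. MES_ENDO stood close to the other cells in intact nerve and at day 21 and above them at day 7. Its medians were -0.10 in intact nerve (2 members higher and 1 lower, against 10% and 17% of all features), 0.17 at day 7 (2 and 0, against 7.31% and 12%) and -0.02 at day 21 (1 and 2, against 6.74% and 16.5%). At day 7 it was near MES_PERI, whose median was 0.22, with sums of 27395 CPM in MES_ENDO and 27898 CPM in MES_PERI. MES_DIFF had 0.08 at day 7 (0 higher and 0 lower, against 2.65% and 9.57%) and -0.08 at day 21 (0 and 1, against 2.83% and 7.36%).

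**Figure D4:**
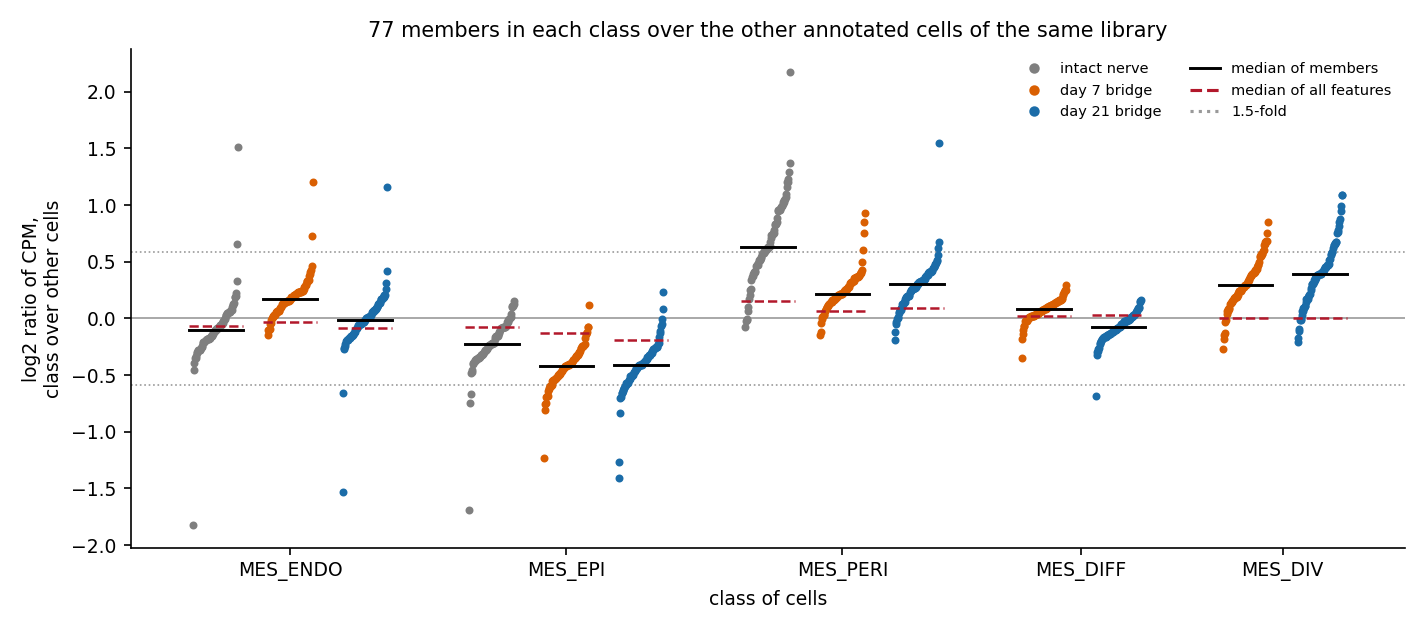
Each point is 1 of 77 members, placed by the log2 ratio of its CPM in a class over all other annotated cells of the same library (y axis), by class (x axis) and library (colour); black bars are medians of the members, dashed bars medians of all features and dotted lines 1.5-fold. The MES_PERI medians lie at 0.63, 0.22 and 0.30 and the MES_EPI medians at -0.22, -0.42 and -0.41 in intact nerve, day 7 and day 21.

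Cox6c, a small subunit of complex IV on chr15:35925886-35938246, was high in the endoneurial and low in the epineurial class. It was at 2125 CPM in MES_ENDO cells, against 742 CPM in the other cells, in intact nerve. At day 7 it was at 3000.2 CPM in MES_ENDO cells, against 1302 CPM in the others, and at day 21 at 2307 CPM, against 1034 CPM. MES_ENDO was high in each library, with log2 ratios of 1.52 (1.46 to 1.57), 1.2 (1.17 to 1.23) and 1.16 (1.12 to 1.19) in intact nerve, day 7 and day 21. MES_EPI was low, at 604, 802 and 607 CPM in the same order. In MES_PERI cells Cox6c was at 1466, 2572 and 1361 CPM. It was the 1 member called higher in MES_ENDO in all 3 libraries, against 2.97% of all features. The matrices also hold a near-identical copy, named Cox6c2 in GENCODE M21 but listed under another symbol in the matrices and so outside the rule. It was at 3.11, 10.7 and 11.04 CPM in intact, day 7 and day 21 cells, and reads of the 2 genes cannot be fully told apart.

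The dividing class stood above the other cells of its library. MES_DIV over the others had a median of 0.29 at day 7, with 9 members called higher and 0 lower, against 12.7% and 12.1% of all features, and 0.39 at day 21, with 19 higher and 0 lower, against 18% and 19.8%. The median over all features was 0.00 at day 7 and 0.01 at day 21. Summed over the 84 genes it held 28045 CPM at day 7 and 25436 CPM at day 21. At both times this was the highest sum of the 5 classes compared. At day 7 the rank was not clear, since MES_PERI held 27898 CPM (27729 to 28068) and the interval of MES_DIV (27901 to 28190) overlapped it. The class also held 1394 CPM of vascular smooth muscle markers at day 7 and 1635 CPM of Schwann cell markers at day 21, whose part in the result was not tested. Called higher at both times were Cox5a, Cox7a2, Cyc1, Atp5g2, Atp5o, Ndufv2 and Ndufb8, which is 9.09% of the members, against 10.05% of all features. Cox7a2, the ubiquitous isoform of subunit 7a, was at 664 CPM in MES_DIV cells, against 368 CPM in the others, at day 7 and at 632 CPM, against 317 CPM, at day 21. Cyc1 was at 133 CPM in MES_DIV cells, against 78.8 CPM in the others, at day 7 and at 136 CPM in MES_DIV cells at day 21. Uqcrh, Ndufa13, Ndufa6, Ndufv3 and Cox7a2l were below 0 at both times.

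The 7 members under the abundance filter were mostly tissue-restricted isoforms. Cox7b2 and Cox8c had 0 UMIs in every library. Cox8b, an isoform of heart and skeletal muscle, had 6 UMIs in intact, 7 in day 7 and 4 in day 21 cells, all in MES_EPI cells, and Cox6a2, the muscle isoform of subunit 6a, had 2 UMIs at day 21 and none in the others. Atp5s was at 6.21, 5.11 and 6.18 CPM in intact, day 7 and day 21 cells. These levels are too low for a comparison.

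Cox7a1, the heart and skeletal muscle isoform of subunit 7a on chr7:30184144-30186078, was highest in MES_PERI among the annotated classes in intact nerve and at day 21. It was at 67.6 CPM in intact, 6.13 CPM in day 7 and 20.7 CPM in day 21 MES_PERI cells. A UMI of it was found in 30 of 116 intact, 19 of 241 day 7 and 206 of 2069 day 21 MES_PERI cells. In MES_ENDO and MES_EPI cells its level lay between 1.03 and 3.17 CPM, so MES_PERI stood above both in each library. MES_DIV cells had 6.76 CPM at day 7 and 6.75 CPM at day 21, against 6.13 CPM in day 7 MES_PERI cells. Barcodes without a class had 21.0, 9.82 and 12.6 CPM in intact nerve, day 7 and day 21. Cox7a1 made up 11.4% of the UMIs of Cox7a1 and Cox7a2 in intact MES_PERI cells (95% interval 8.53 to 14.8). The share was 1.31% in day 7 MES_PERI cells (0.83 to 1.95) and 5.17% in day 21 ones (4.59 to 5.80). The smooth muscle markers Tagln and Acta2 were also higher in intact MES_PERI cells than in those of the bridge, as given above, and Cox7a1 stood at 76.0 CPM in the 89 intact cells left without those rich in smooth muscle markers.

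Cox6b2, known as the testis isoform of subunit 6b, on chr7:4751792-4753094, was at 80.0 CPM in intact, 49.8 CPM in day 7 and 47.9 CPM in day 21 MES_PERI cells. In MES_ENDO cells it was at 9.22, 46.6 and 10.8 CPM in the same order. In MES_EPI cells it was at 22.5, 22.6 and 13.4 CPM. MES_ENDO was thus low in intact nerve and at day 21 and near the MES_PERI level at day 7, with a log2 ratio of 2.32 for day 7 over intact (1.79 to 2.93). Its share of the UMIs of Cox6b1 and Cox6b2 in MES_ENDO was 2.54% in intact (1.74 to 3.56), 7.39% in day 7 (6.37 to 8.53) and 2.77% in day 21 cells (2.04 to 3.67).

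Cox4i2, the isoform of subunit 4 that is known from lung and vascular cells and from low oxygen, on chr2:152754173-152765037, was found among the annotated cells mainly in the dividing class. Most of its UMIs lay in barcodes without a class, at 119.5, 42.8 and 44.2 CPM in intact nerve, day 7 and day 21. It had 161 UMIs in 28 of 206 MES_DIV cells at day 7 (13.6%, 9.23 to 19.0) and 44 UMIs in 16 of 119 at day 21 (13.4%, 7.88 to 20.9). The level in the class was 31.1 CPM at day 7 and 29.7 CPM at day 21. In the other classes compared it was at most 2.14 CPM, and at most 1.18% of their cells held a UMI of it, in day 7 MES_ENDO cells with a median of 15143 UMIs, against a median of 24150 UMIs in day 7 MES_DIV cells. The MES_DIV cells with a Cox4i2 UMI held 4460 CPM of summed pericyte markers at day 7, against 90.2 CPM in those without, and 3299 CPM, against 47.2 CPM, at day 21. All 28 at day 7 and 15 of 16 at day 21 had at least 3 pericyte marker UMIs, while 14 of 178 and 3 of 103 of the others did. Rgs5, a pericyte marker, was at 3387 CPM with and 59.0 CPM without a Cox4i2 UMI at day 7. Ndufa4l2, the hypoxia-linked relative of Ndufa4 that the rule leaves out, was at 687 CPM with and 5.27 CPM without at day 7, and at 542 and 3.94 CPM at day 21. Smooth muscle markers moved with it too, at 8071 CPM with and 487 CPM without at day 7. Without the MES_DIV cells that had at least 3 pericyte marker UMIs, a check chosen after seeing these values, 0 Cox4i2 UMIs were left at day 7 and 1 at day 21, and the median of the members over the other cells was 0.28 at day 7 with 10 higher and 0.40 at day 21 with 21 higher.

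**Figure D5:**
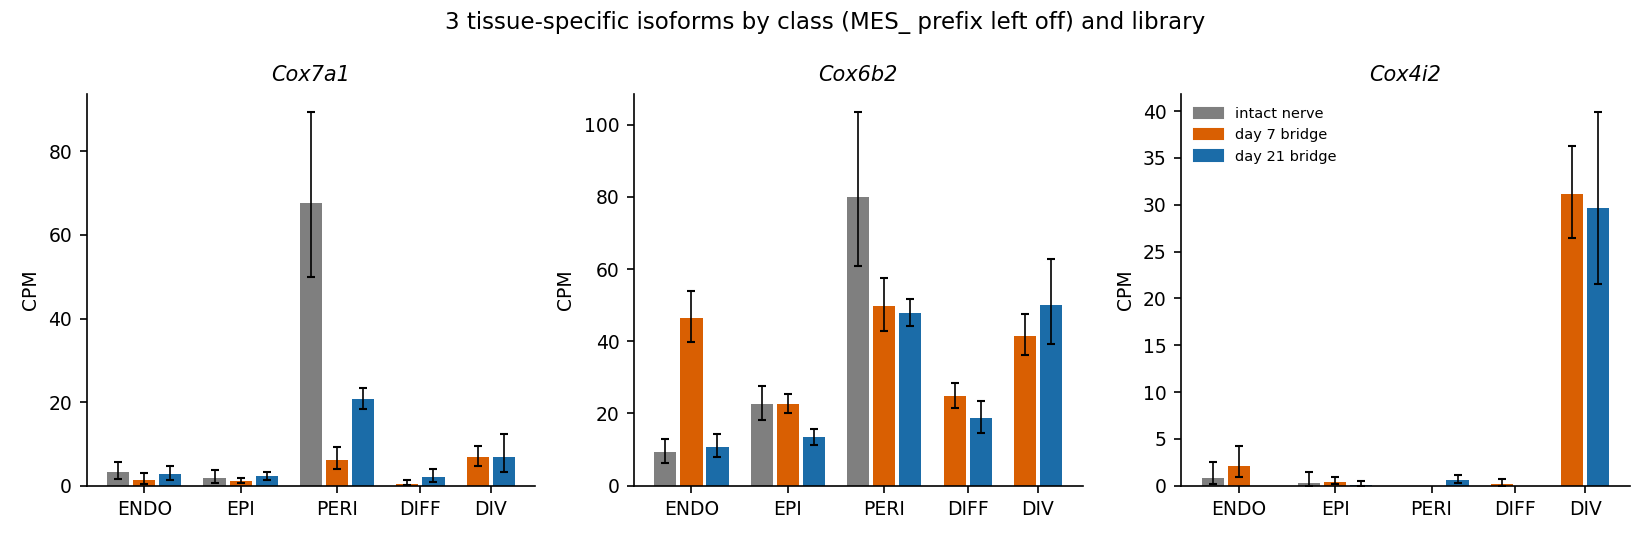
The CPM of the isoform genes Cox7a1, Cox6b2 and Cox4i2 (y axes, each from 0) is shown by class (x axis) and library (colour), with bars for the 95% Poisson interval. Cox7a1 is highest in intact MES_PERI cells at 67.6 CPM, Cox6b2 in MES_ENDO cells stands at 46.6 CPM at day 7, and Cox4i2 is at most 2.14 CPM in the annotated classes other than MES_DIV.

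The 13 subunits encoded in the mitochondrial genome did not follow the nuclear ones. Their sum was 5418 CPM in intact, 4427 CPM in day 7 and 6566 CPM in day 21 cells, so the library that was highest for the nuclear genes was lowest for these. Of the 12 that passed the filter, 0 were called higher and 8 lower at day 7 over intact, 0 higher and 4 lower at day 21 over intact, and 6 higher and 0 lower at day 21 over day 7. The mitochondrial ribosomal RNAs moved the same way, at 11710 CPM in intact, 5294 CPM in day 7 and 14742 CPM in day 21 cells, and the part of depth, dissociation or RNA quality in this was not tested. Near-identical copies elsewhere in the annotation were found for 6 mitochondrial genes. Among the 7 without one, 4 were called lower at day 7 than in intact cells and 5 higher at day 21 than at day 7, while for day 21 over intact none was called lower or higher and the median was 0.27. Of these, mt-Nd2, a membrane arm subunit of complex I, was at 731 CPM in intact, 393 CPM in day 7 and 902 CPM in day 21 cells. mt-Cytb, the cytochrome b of complex III, was at 2132, 2143 and 2842 CPM, level between intact and day 7 cells. In MES_PERI the 13 genes summed to 12317 CPM in intact, 5213 CPM in day 7 and 8206 CPM in day 21 cells, against 5852, 4556 and 5965 CPM in MES_ENDO and 3803, 3970 and 5100 CPM in MES_EPI. Among the annotated classes compared in intact nerve, MES_PERI thus stood highest for both the nuclear and the mitochondrial genes. Intact barcodes without a class held 14068 CPM of the mitochondrial genes. The mitochondrial ribosomal RNAs stood at 34762 CPM in intact MES_PERI cells, against 8847 CPM in MES_ENDO and 10047 CPM in MES_EPI.

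Other mitochondrial gene groups were read with the same threshold for day 7 over intact, against the 15.3% and 16.9% of all features given above. Mitochondrial ribosomal proteins had a median of 0.35, with 11 of 74 higher and 2 lower. Among them Mrpl34 was at 43.5, 90.8 and 55.0 CPM in intact, day 7 and day 21 cells, while Mrps6 was at 62.0, 25.5 and 38.2 CPM. Protein import genes had a median of 0.31, with 8 of 28 higher and 1 lower, and Hspe1, the mitochondrial chaperonin partner, was at 257, 430.4 and 259.7 CPM. The 1 lower was Tomm6, a small subunit of the outer membrane import pore, at 53.2, 19.3 and 16.3 CPM. Tricarboxylic acid cycle genes had a median of 0.23, with 3 of 17 higher and 0 lower, namely Idh2, Mdh2 and Cs, the citrate synthase gene, which was at 30.0, 47.9 and 41.7 CPM. Assembly factors had a median of 0.08, with 3 of 29 higher and 1 lower. Fatty acid oxidation genes had -0.19, with 0 of 17 higher and 1 lower, and the 1 was Acadm, the medium-chain acyl-CoA dehydrogenase, at 73.8, 47.7 and 69.8 CPM. Biogenesis regulators had -0.09, with 1 of 10 higher and 0 lower. Glycolysis genes had 0.27, with 3 of 14 higher and 2 lower, among them Slc2a1, the glucose transporter, which is also a perineurial marker, at 79.8, 21.8 and 150.01 CPM. Antioxidant genes had 0.06, with 4 of 13 higher and 0 lower, and Prdx2, a peroxiredoxin, was at 245, 527 and 328 CPM. Partners and inhibitors of the chain that the rule leaves out, such as Cycs and Atpif1, had 0.46, with 5 of 14 higher and 2 lower.

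At day 21 over day 7, where 14.7% of all features were called higher and 8.57% lower, mitochondrial ribosomal proteins had a median of -0.25 with 0 of 74 higher and 4 lower, and import genes -0.29 with 0 of 28 higher and 2 lower. Assembly factors had -0.10 with 0 of 29 in either direction, and tricarboxylic acid cycle genes 0.15 with 1 of 17 higher and 0 lower. Fatty acid oxidation genes had 0.22 with 1 of 17 higher and 0 lower. Glycolysis genes had -0.16 with 2 of 14 higher and 1 lower, and antioxidant genes -0.17 with 1 of 13 higher and 2 lower. Cycs, the soluble cytochrome c, was at 108, 199 and 114 CPM in intact, day 7 and day 21 cells, and Atpif1, the inhibitor of the ATP synthase, at 334, 628 and 523 CPM. Both were highest at day 7, as most of the nuclear subunits were.

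Over the 13 class and library pairs with at least 100 cells, the highest level of a member was between 1.43 and 8.67 times its lowest, with a median of 2.07 over the 77, beside 2.62 over all features. Cox6b2 had the widest range and Cox6c the next, from 604 CPM in intact MES_EPI to 3000.2 CPM in day 7 MES_ENDO cells. Transcript ends that agree over at least 150 of their last 300 bases with at least 98% identity were found for 13 members, and of the genes described above these are Atp5g1, Atp5g2, Atp5l, Cox6c, Cox7c, Ndufab1, Ndufs5 and Uqcrb. The annotated copies stood at no more than 11.04 CPM in any library, and how the counting split reads between them is not given in the sources used here, so the split of reads between these genes and their copies is uncertain. Ndufb2, Ndufb8, Ndufb9, Atp5g2 and Atp5o share exon bases on the same strand with another annotated gene and are uncertain for that reason too.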

How the data were processed

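Per the submitters' processing notes the reads were processed with Cell Ranger 6.1.2 and 3.0.2 and Seurat 4.0.1 on mm10 (GRCm38), and the file headers of all 3 matrices name version 6.1.2. The deposited values are whole UMI counts for each gene in each barcode, and the authors' cell table gives each cell its library and class. The authors' cell filters and doublet treatment are not given in the sources used here, and no doublet caller was run. Counts were added up over annotated cells by library or class. The intact library held 8371421 UMIs in them, the day 7 library 36169912 and the day 21 library 33683464. Ratios carry exact conditional binomial intervals, levels exact Poisson intervals and shares exact Clopper-Pearson intervals, all for counting error only. The ratio script was tested on simulated counts. No test between groups was possible with 1 library per group. Of the 84 members, 69 carried the same identifier version in GENCODE M21, and gene positions are given for these. Members, lists, markers and the naming rule were chosen with earlier results of these data known. Genes named are, per complex, the 2 highest and 2 lowest in each comparison, with complex II, Cyc1 and the isoforms in full, and within a class the 3 largest each way, of which the text gives those it turns on. Python 3.11.15, numpy 2.4.6, scipy 1.17.1 and blastn were used.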

Additional observations from a re-analysis of the deposited data

Results flagged for a closer look

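For a pair of members a class moved up while another moved down. Cox6b2 had a log2 ratio of day 7 over intact of 2.32 in MES_ENDO and of -0.69 in MES_PERI. Cox5a had a log2 ratio of day 21 over intact of 0.92 in MES_ENDO and of -0.64 in MES_PERI. The difference between the classes was not tested, since each class and time is 1 library, and in both cases intact MES_PERI was the highest of the intact classes.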

How the results depend on the processing

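No paired analysis was possible because each group is 1 library. Of the 266 alternative values computed, 197 kept their direction and stayed near the reported value, 3 turned direction and 66 moved. Day 21 over intact turned direction: its median of 0.07 became -0.038 with median-of-ratios scaling, -0.13 with equal weight of 3 classes and -0.033 over every barcode, so no direction is read from it. For day 7 over intact the median of 0.25 became 0.13 with equal weight of 3 classes and 0.16 over every barcode. Median-of-ratios scaling gave 0.45 within MES_ENDO for day 7 over intact, and -0.45 within MES_DIFF and -0.19 within MES_DIV for day 21 over day 7, with 11 members past 1.5-fold in MES_PERI and 23 in MES_DIFF. Cells of 5000 to 15000 UMIs gave medians of 0.026 for day 7 over intact and -0.13 for day 21 over day 7 in MES_EPI, with 1 and 3 members past the fold, and 19 for day 21 over day 7 in MES_ENDO. This alternative was not run for MES_DIFF and MES_DIV, where a library had fewer than 50 such cells. Thinning each cell to 2000 UMIs gave 0 members past the fold for day 21 over intact, 5 in MES_ENDO for day 21 over intact, 19 in MES_ENDO for day 21 over day 7, 5 in MES_EPI for day 7 over intact, 2 in MES_DIV for day 21 over day 7, 1 in MES_ENDO over the others at day 7 and 15 in MES_DIV over the others at day 7, and a median of 0.25 for MES_PERI over the others at day 21. With each cell weighted alike MES_DIV over the others at day 7 had 14, and MES_ENDO over the others at day 21 had a median of -0.081. Over every barcode 3 members passed for day 7 over intact and 3 for day 21 over day 7. With no filter beyond 3 counts, 8 passed for day 7 over intact (6 higher and 2 lower, against 21.7% and 30.6% of all features) and 5 for day 21 over intact (1 and 4, against 18.9% and 22.0%). At 2-fold in place of 1.5-fold, 1 member passed for day 7 over intact, 0 for day 21 over intact and 1 for day 21 over day 7. Within classes 2-fold left 4, 0 and 2 in MES_ENDO, 0, 1 and 1 in MES_EPI and 0, 1 and 1 in MES_PERI for day 7 over intact, day 21 over intact and day 21 over day 7, and 0 in MES_DIFF and 0 in MES_DIV. Of the classes over the other cells, 2-fold left 1 in MES_ENDO at day 7, 1, 1 and 2 in MES_EPI and 14, 0 and 1 in MES_PERI for intact, day 7 and day 21, 0 in MES_DIFF at day 21, and 0 and 2 in MES_DIV. The log2 ratio of the summed level of day 7 over intact was 0.33 without mitochondrial, ribosomal and haemoglobin genes in the total, 0.30 thinned and 0.32 in the depth window. For day 21 over intact it was 0.0078, 0.037 with cells alike and 0.054 thinned, and for day 21 over day 7 it was -0.32, -0.26 with cells alike, -0.25 thinned and -0.29 in the depth window. Over every barcode the share of Cox4i2 was 4.17% in intact nerve, 2.16% at day 7 and 1.84% at day 21, that of Cox7a1 at day 7 was 1.17%, that of Cox6a2 at day 7 was 0.095% and that of Atp5g2 at day 7 was 30.04%. The cause of these moves was not tested.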

Other observations

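Barcodes without a class held the respiratory chain genes at 27694 CPM in intact nerve, 25655 CPM at day 7 and 21670 CPM at day 21. This was above the sum over all annotated cells of each library but not above every class. MES_PERI stood at 29070 CPM in intact nerve, and MES_DIV at 28045 CPM at day 7 and 25436 CPM at day 21. The barcodes without a class held markers of several cell types, with 21934, 1341 and 1418 CPM of vascular smooth muscle markers in intact nerve, day 7 and day 21, and 67.2, 955 and 15990 CPM of Schwann cell markers. Myeloid markers stood at 84.5, 2043 and 1038 CPM and erythroid markers at 5296, 449 and 820 CPM in the same order. Cox4i2, low in the annotated cells, was at 119.5 CPM in these barcodes in intact nerve, 42.8 CPM at day 7 and 44.2 CPM at day 21, with a UMI in 164 of 862, 217 of 3096 and 296 of 3511 barcodes. Their summed pericyte markers stood at 1080, 959 and 1033 CPM.

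After each cell was thinned to 2000 UMIs, a mean of 34.8 of the 84 genes had a UMI in MES_DIV cells at day 7 and 33.3 at day 21, against 26.6 and 23.6 in MES_EPI cells. Unthinned, the medians were 74 and 68 genes in MES_DIV cells, against 70 and 58 in MES_EPI cells. In intact nerve the thinned mean was 34.1 in MES_PERI, 25.9 in MES_ENDO and 24.8 in MES_EPI cells.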
